A study of Mus musculus with 12 samples.

Results

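The genes described here are enzymes and transporters of glycolysis, lactate handling, the citrate cycle and the shuttles around it, with 3 genes that beta cells normally repress, Hk1, Ldha and Slc16a1. They were chosen by name, with earlier results of these data known. Of 38 names, 37 had an entry among the 24078 entries of the table of islet transcripts. Pkm, the last enzyme of glycolysis, had no entry under that name, and the entry Pkm2, an older name of the same gene, lay at 46.3 to 53.4 RPKM in WT, 28.6 to 51.0 in Wfs1HZ and 42.3 to 56.1 in Wfs1KO islets and is not counted among the 37.

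RNA was sequenced from the pancreatic islets of 12 male mice, 4 wild-type (WT), 4 heterozygous (Wfs1HZ) and 4 homozygous (Wfs1KO) for the Wfs1tm1Koks allele, in which a LacZ cassette takes the place of most of exon 8 of Wfs1. A fusion of the first part of the protein with LacZ is still made, so reads from the remaining exons are counted in Wfs1KO animals. All were F2 hybrids of 129S6/SvEvTac and C57BL/6, aged 5 to 6 months, and all islets had been picked by hand and kept overnight in medium with 4.5 g/L glucose. Values are RPKM, that is, reads scaled to transcript length and to the mapped reads of the animal, so that levels can be set side by side between genes. The RPKM of Wfs1 checked the labels. Its values were 33.9, 27.4, 24.9 and 28.4 RPKM in WT, 15.03, 4.69, 16.4 and 8.16 in Wfs1HZ and 5.08, 6.61, 3.46 and 2.45 in Wfs1KO islets, and Wfs1KO lay below WT in every animal (-2.76 ± 0.29 on the log2 scale, adjusted p = 0.04 by limma), while Wfs1HZ replicate 2 fell within the Wfs1KO range.

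Glycolysis splits glucose into pyruvate in the cytosol. In the beta cell the rate of this path follows the glucose outside, and pyruvate is sent to the mitochondria rather than turned into lactate. Hexokinase 1 (Hk1), lactate dehydrogenase A (Ldha) and the lactate and pyruvate carrier MCT1 (Slc16a1) are among the genes called disallowed, because they are held low in beta cells and are present in most other cells. Pyruvate enters the citrate cycle through pyruvate dehydrogenase and pyruvate carboxylase, and the glycerol phosphate and malate shuttles carry reducing equivalents from the cytosol into mitochondria.

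Islets hold several cell types, and the libraries differed in how much RNA of other cells they held. Approximate depth was 2910000 to 8910000 reads in WT, 2190000 to 7340000 in Wfs1HZ and 3290000 to 9560000 in Wfs1KO animals. The summed RPKM of 13 acinar markers was 9167 in Wfs1HZ replicate 2 and 8635 in Wfs1KO replicate 4, against 54215 to 308435 in the other 10 animals. These libraries were the shallowest of their genotypes, at 2190000 and 3290000 reads. They also had the lowest summed beta cell markers, 12565 and 22394 against 32086 to 179874 RPKM, and no beta cell marker but Mafa was at 0 in any library. In Wfs1HZ replicate 2 the stromal markers reached 441 RPKM. In bulk islets, fewer cells of a type and less RNA per cell cannot be told apart. Their summed alpha, delta and PP cell markers were high, at 168719 RPKM in Wfs1HZ replicate 2, the highest of its genotype, and 240437 RPKM in Wfs1KO replicate 4, the highest of the 12.

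The levels spanned a wide range in WT islets. Gapdh and Aldoa, both of the glycolytic trunk, were highest at 275 ± 89.6 and 263 ± 54.9 RPKM (SD, n = 4), followed by the mitochondrial enzymes Glud1 (glutamate dehydrogenase) at 154 ± 29.9 and Mdh2 (malate dehydrogenase) at 131 ± 42.7 RPKM. The fifth was Ldha, at 74.0 ± 23.7 RPKM, a level above 98.1% of all entries. The other disallowed genes of the list lay far lower, with Hk1 at 4.34 ± 1.15 RPKM and Slc16a1 at 4.22 ± 0.994 RPKM, above 65.1% and 64.6% of entries. The lowest members were Hk2 (hexokinase 2) at 1.99 ± 0.483, Pcx (pyruvate carboxylase) at 1.21 ± 0.71 and Me3 (mitochondrial malic enzyme) at 0.868 ± 0.144 RPKM. The neighbours Gapdh and Aldoa, Glud1 and Mdh2, and Hk1 and Slc16a1 differed by less than their SDs.

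**Figure D1:**
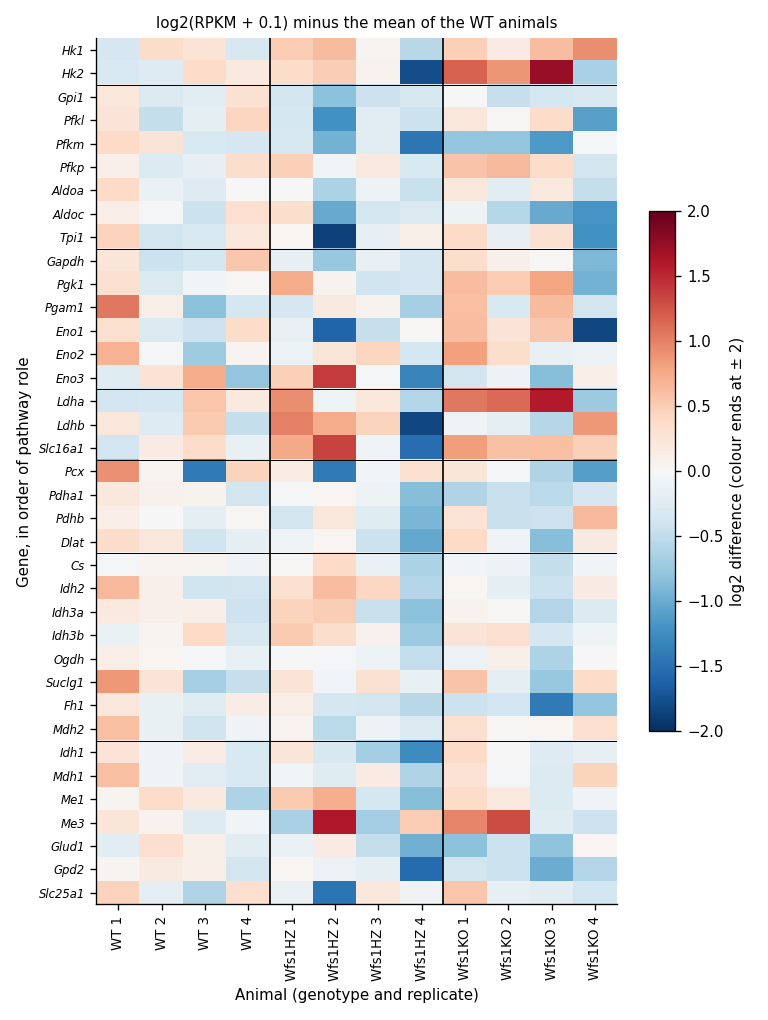
Each cell shows log2(RPKM + 0.1) of a gene in an animal minus the mean of the 4 WT animals, with genes in rows by pathway role (lines part the roles) and animals in columns by genotype. Ldha and Hk2 are red in Wfs1KO replicates 1 to 3 and blue in replicate 4, and Wfs1HZ replicate 4 is the lowest animal for 18 of the 37 genes. The same share over all transcripts was not counted.

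Wfs1KO against WT asked what the loss of Wfs1 changed. No member passed an adjusted p under 0.05 in limma, where the share over all 21701 transcripts tested was 0.0138%. At an unadjusted p under 0.05 there were 6 of 37 (16.2%), against 5.64% of all transcripts. As the members were chosen with earlier results of these data known, their shares are not independent of those results. Slc16a1 was higher, and Fh1, Gpd2, Pdha1, Aldoc and Pfkm were lower in Wfs1KO. All 4 Wfs1KO animals lay above all WT animals for Slc16a1 and below them for Fh1, that is 2 of 37 members with groups that did not overlap, against 2.74% of all transcripts. In all, 15 members were higher and 22 lower, with a median log2 fold change of -0.07 beside 0.07 over all transcripts. Here and below, higher and lower in such counts go by the sign of the log2 fold change, which compares means of log2(RPKM + 0.1). By means of RPKM, 16 members were higher and 21 lower, the difference being Eno1. The median was 0.06 without WT replicate 1 and 0.04 without Wfs1KO replicate 4, so its sign rested on single animals. The lowest adjusted p among the members was 0.835. Without Wfs1KO replicate 4, 10 members (27.0%) had an unadjusted p under 0.05, 5 of them among the 6 above, where all transcripts gave 8.62%, and 9 did not overlap, where all transcripts gave 7.99%.

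**Figure D2:**
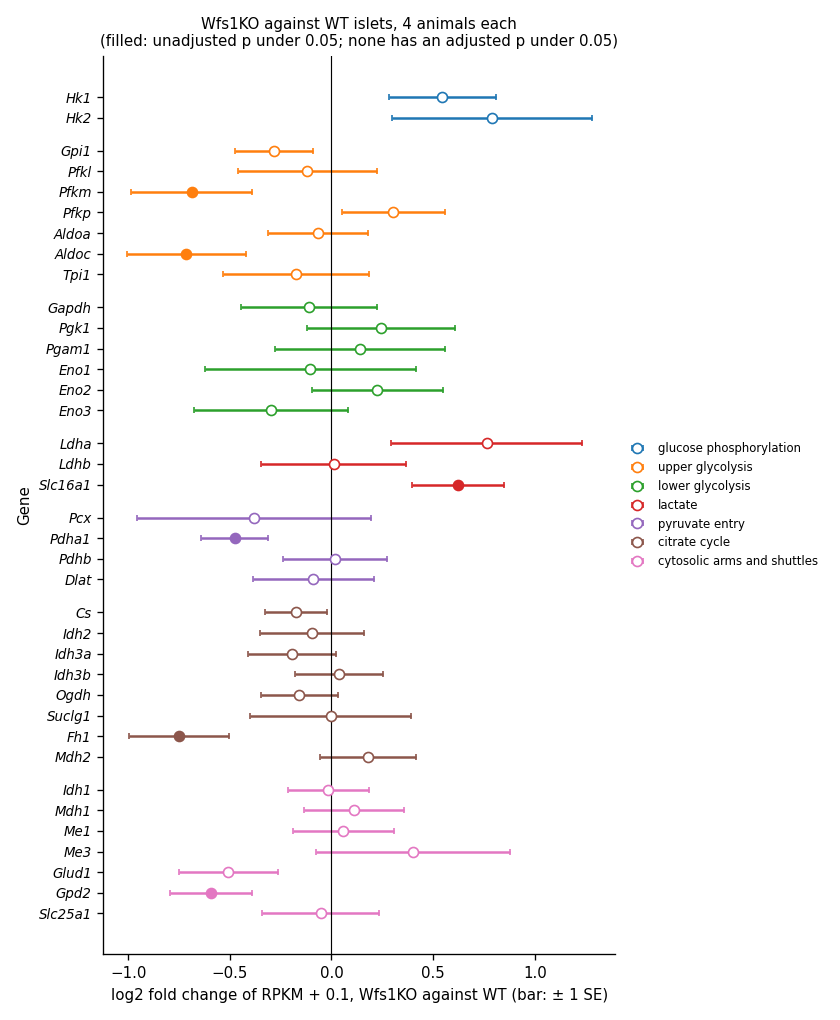
Points show the log2 fold change of RPKM + 0.1 in Wfs1KO against WT islets with ± 1 SE, 4 animals in each group, with genes in rows coloured by role. Both hexokinases and the lactate genes lie at or to the right of 0, and the 5 filled points on the left are Pfkm, Aldoc, Pdha1, Fh1 and Gpd2.

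Both hexokinases had higher means in Wfs1KO islets. Hk1, the high-affinity hexokinase, was at 3.32, 5.50, 5.15 and 3.38 RPKM in WT, 6.08, 6.64, 4.38 and 2.86 in Wfs1HZ and 5.89, 4.74, 6.55 and 8.11 in Wfs1KO islets. The ranges overlapped, since Wfs1KO replicate 2 lay below WT replicates 2 and 3, while 4 of 4 Wfs1KO animals lay above the WT median. The difference from WT was 0.54 ± 0.26 on the log2 scale (SE), with an adjusted p = 0.879 by limma and an exact permutation p = 0.114. Hk1 was highest in Wfs1KO replicate 4 and Wfs1HZ replicate 2, the libraries with few acinar transcripts, and without Wfs1KO replicate 4 its difference was 0.42. Hk2, an inducible hexokinase, was at 1.56, 1.61, 2.54 and 2.25 RPKM in WT, 2.55, 2.79, 2.06 and 0.5 in Wfs1HZ and 4.53, 3.69, 6.78 and 1.20 in Wfs1KO islets. Wfs1KO replicates 1 to 3 lay above all WT animals and replicate 4 below them. The difference was 0.79 ± 0.49 with all animals (adjusted p = 0.891, limma; exact permutation p = 0.2) and 1.27 without replicate 4 (adjusted p = 0.358, limma). Over the alternatives tried it lay between 0.47 and 1.27.

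Slc16a1 and Ldha, the carrier and the enzyme of lactate, had higher means in Wfs1KO islets. The Slc16a1 gene lies at chr3:104638668-104658462 on the plus strand, Ldha at chr7:46841475-46855627 on the plus strand and Hk1 at chr10:62268855-62379908 on the minus strand (GENCODE M21, GRCm38). Slc16a1 was at 3.14, 4.66, 5.38 and 3.71 RPKM in WT, 7.06, 10.7, 3.87 and 1.38 in Wfs1HZ and 7.48, 6.23, 6.31 and 5.78 in Wfs1KO islets. The lowest Wfs1KO animal, at 5.78 RPKM, was above the highest WT animal, at 5.38, and the Wfs1HZ animals spread below and above both groups. The difference from WT was 0.62 ± 0.23 on the log2 scale with an adjusted p = 0.835 by limma, and the exact permutation test gave p = 0.0286, the smallest that 4 against 4 animals allow. Over the alternatives tried its log2 fold change lay between 0.49 and 0.75, with the lowest adjusted p = 0.39 (limma). The stromal markers were higher too. Their summed level was 25.4 to 62.4 RPKM in WT, 15.7 to 441 in Wfs1HZ and 70.1 to 175 in Wfs1KO islets, 7 of 8 were higher in Wfs1KO with a median log2 fold change of 1.28, and no stromal marker was at 0 in any library. Their part in the Slc16a1 difference was not tested.

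Ldha was at 54.4, 55.8, 104 and 81.4 RPKM in WT, 136, 66.9, 83.3 and 47.5 in Wfs1HZ and 149, 157, 213 and 43.2 in Wfs1KO islets. Wfs1KO replicates 1 to 3 lay above all WT animals and above all Wfs1HZ animals, and replicate 4 had the lowest value of the 12. The difference from WT was 0.76 ± 0.47 on the log2 scale (adjusted p = 0.887, limma; exact permutation p = 0.2). Without replicate 4 it was 1.26 with an adjusted p = 0.303 by limma, the lowest of the members in that fit. With each of the animals left out in turn, the difference lay between 0.49 and 1.26. Ldhb, the other subunit of lactate dehydrogenase, was at 3.26 to 6.63 RPKM in WT and 3.07 to 8.45 in Wfs1KO islets and differed by 0.01 ± 0.36.

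**Figure D3:**
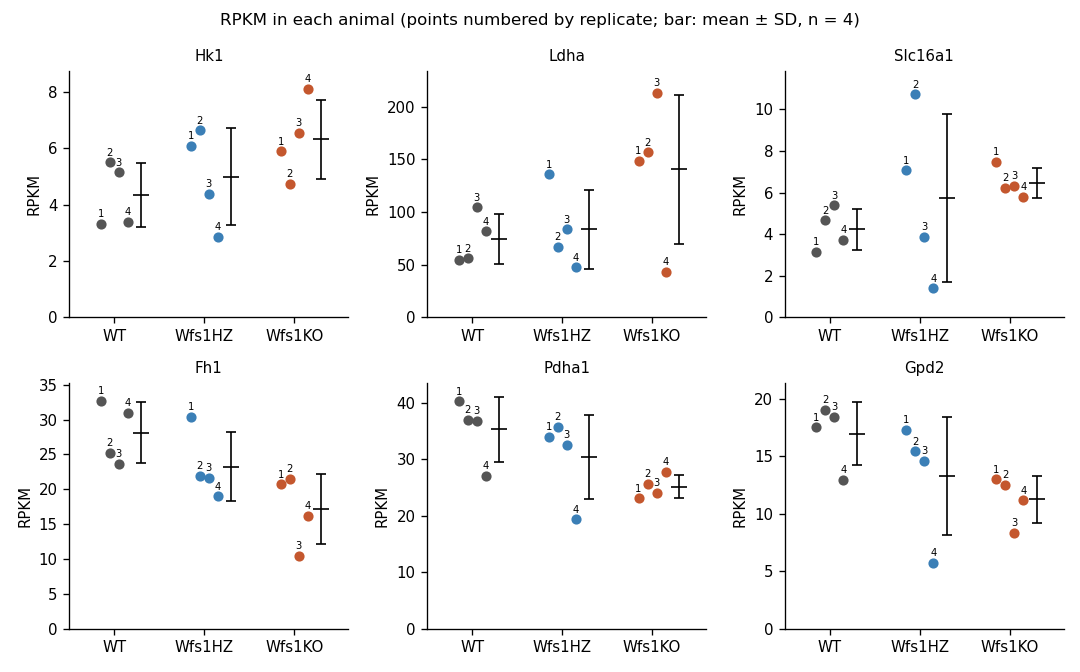
Points show the RPKM of 6 genes in each animal, numbered by replicate, by genotype, and the bars give mean ± SD with n = 4. The Wfs1KO animals lie above WT for Slc16a1 and below WT for Fh1, and Wfs1KO replicate 4 stands at 43.2 RPKM for Ldha, away from 149 to 213 in the other 3.

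The RefSeq promoter table (GRCm38.p6, the build of mm10) held a window for 36 of the 37 members. The 250 bases before a start site are shown for the 3 disallowed genes, the members that beta cells normally repress. ACGTG and GCGTG, the core letters recognised by hypoxia-inducible factors, were searched on both strands and stand in capitals. The sequence CACGTG, which basic helix-loop-helix factors also bind, holds ACGTG on either strand and counts as 2 matches. For Ldha and Hk1, which have 2 windows each, the one with more matches is shown. The other Ldha window holds 1 match. The other Hk1 window, chr10:62379909-62380158, borders the start of the gene as annotated above and holds 0 matches. The Hk1 window shown lies inside the gene, and the 2 Ldha windows lie inside Ldha as annotated above.
Slc16a1, chr3:104638414-104638663, plus strand: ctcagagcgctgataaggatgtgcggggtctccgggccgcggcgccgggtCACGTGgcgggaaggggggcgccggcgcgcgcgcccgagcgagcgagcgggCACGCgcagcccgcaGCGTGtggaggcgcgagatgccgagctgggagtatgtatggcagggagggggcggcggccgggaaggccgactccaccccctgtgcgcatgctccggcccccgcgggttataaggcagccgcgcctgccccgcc
Ldha, chr7:46845554-46845803, plus strand: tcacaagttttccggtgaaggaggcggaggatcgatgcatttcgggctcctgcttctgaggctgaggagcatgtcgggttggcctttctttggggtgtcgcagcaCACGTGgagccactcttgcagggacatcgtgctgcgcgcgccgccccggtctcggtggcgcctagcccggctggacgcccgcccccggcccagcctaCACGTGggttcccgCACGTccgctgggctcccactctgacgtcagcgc
Hk1, chr10:62340422-62340671, minus strand: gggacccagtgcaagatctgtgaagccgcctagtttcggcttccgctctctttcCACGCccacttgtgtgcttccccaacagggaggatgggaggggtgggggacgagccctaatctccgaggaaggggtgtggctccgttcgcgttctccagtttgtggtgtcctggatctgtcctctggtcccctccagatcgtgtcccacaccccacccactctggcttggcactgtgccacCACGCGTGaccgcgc
The windows hold 4, 5 and 3 matches, respectively. Either string was in 41 of 55 windows of the members (74.5%) and in 38.6% of all 32851 windows, with ACGTG in 38.2% and 16.6% and GCGTG in 52.7% and 28.2%. Each window lies just upstream of an annotated start, and a match describes letters only.

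In upper glycolysis, 1 of 7 members was higher and 6 were lower in the Wfs1KO islets, and 2 had an unadjusted p under 0.05. Aldoc, the aldolase of brain and a minor form in islets, was at 7.20, 6.34, 4.81 and 8.32 RPKM in WT, 8.38, 3.20, 5.09 and 5.36 in Wfs1HZ and 6.10, 4.37, 3.19 and 2.84 in Wfs1KO islets. Wfs1KO replicates 2, 3 and 4 lay below all WT animals, and replicate 1 lay within their range (-0.71 ± 0.29, adjusted p = 0.85, limma; exact permutation p = 0.0571). Pfkm, the muscle form of phosphofructokinase, was at 8.43, 7.64, 5.16 and 5.06 RPKM in WT, 5.12, 3.28, 5.52 and 2.28 in Wfs1HZ and 3.69, 3.67, 2.84 and 6.26 in Wfs1KO islets. Wfs1KO replicates 1 to 3 lay below all WT animals and replicate 4 within them (-0.69 ± 0.30, adjusted p = 0.879, limma; exact permutation p = 0.0857).

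The other forms of these steps overlapped between genotypes. Pfkl, the liver form of phosphofructokinase, was at 20.4, 12.2, 14.8 and 22.9 RPKM in WT, 13.3, 7.33, 14.7 and 12.6 in Wfs1HZ and 20.0, 17.3, 21.9 and 7.98 in Wfs1KO islets. The genotypes overlapped, with the lowest values in Wfs1HZ replicate 2 and Wfs1KO replicate 4, and the difference between Wfs1KO and WT was -0.12 ± 0.34. Pfkp, the platelet form, was at 15.6 to 24.2 RPKM in WT, 15.4 to 26.5 in Wfs1HZ and 14.7 to 29.8 in Wfs1KO islets, a difference of 0.30 ± 0.25 from WT. Aldoa, the main aldolase, was at 342, 238, 216 and 259 RPKM in WT, 260.4, 167, 243 and 191 in Wfs1HZ and 304, 224, 297 and 187 in Wfs1KO islets, and its groups overlapped (-0.07 ± 0.24). Gpi1 (glucose phosphate isomerase) differed by -0.28 ± 0.19 and Tpi1 (triose phosphate isomerase) by -0.17 ± 0.36.

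Because a share within an animal does not depend on how that animal was scaled, 14 isozyme shares were compared in the 3 pairs of genotypes. Pfkp made up 41.5, 44.1, 45.8 and 46.4% of the summed RPKM of Pfkl, Pfkm and Pfkp in WT, 58.9, 63.3, 51.9 and 50.8% in Wfs1HZ and 54.5, 58.7, 49.8 and 50.7% in Wfs1KO islets. Every animal with the allele lay above every WT animal. The means were 44.4% ± 2.20, 56.3% ± 5.93 and 53.4% ± 4.06 (SD, n = 4), a difference from WT of 11.8 percentage points in Wfs1HZ and 8.99 in Wfs1KO (exact permutation p = 0.0286 each, adjusted p = 0.4 over 42 tests). Both comparisons share the WT animals.

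Aldoc made up 2.49% ± 0.477 of the summed RPKM of Aldoa and Aldoc in WT, 2.44% ± 0.582 in Wfs1HZ and 1.61% ± 0.421 in Wfs1KO islets (SD, n = 4). The Wfs1KO animals, at 1.06% to 1.97%, lay below WT, at 2.06% to 3.12% (exact permutation p = 0.0286, adjusted p = 0.4). Ldha was 93.7% ± 2.11 of Ldha and Ldhb in WT, 93.4% ± 3.21 in Wfs1HZ and 94.2% ± 7.08 in Wfs1KO islets. The Wfs1KO value rests on replicate 4 at 83.6%, with 97.2% to 98.6% in the other 3, which lay above WT at 91.0% to 96.1%. Of the 42 shares compared, 3 had groups that did not overlap and none had an adjusted p under 0.05. Groups of 4 against 4 that do not overlap always give the smallest exact permutation p, 0.0286, so the same 3 had an unadjusted exact p under 0.05.

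**Figure D4:**
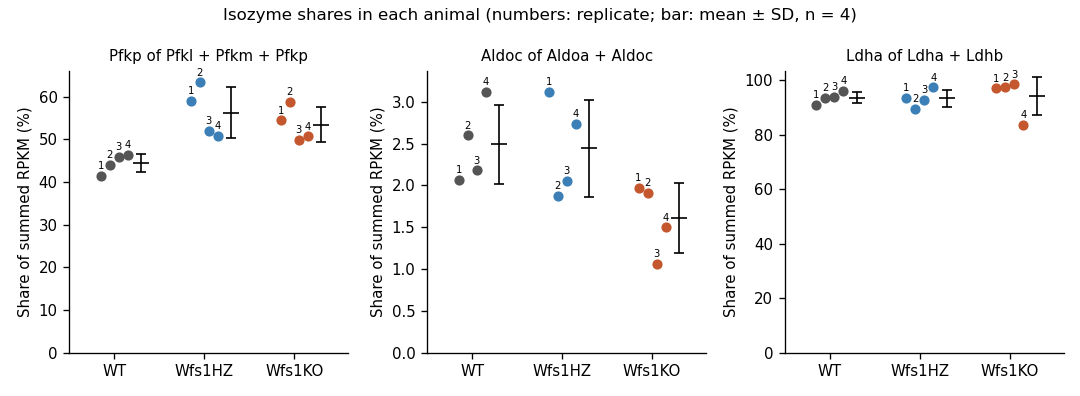
Points show the share of an isozyme in the summed RPKM of its family, in percent, in each animal by genotype, numbered by replicate, with bars for mean ± SD (n = 4). The Pfkp share is 41.5% to 46.4% in WT and 49.8% to 63.3% in the other 8 animals, and the Aldoc share is lowest in Wfs1KO.

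Of the 6 enzymes of lower glycolysis, 3 were higher and 3 lower in Wfs1KO on the log2 scale, and none had an unadjusted p under 0.05. Gapdh (glyceraldehyde phosphate dehydrogenase) was at 311, 197, 206 and 385 RPKM in WT, 237, 157, 238 and 209 in Wfs1HZ and 336, 282, 268 and 141 in Wfs1KO islets, and the lowest animals were Wfs1KO replicate 4 and Wfs1HZ replicate 2. Its difference from WT was -0.11 ± 0.34 in Wfs1KO and -0.35 ± 0.29 in Wfs1HZ islets (adjusted p = 0.989 and 1, limma). Eno1, the enolase of most tissues, was at 10.9, 7.15, 6.55 and 11.3 RPKM in WT, 7.84, 2.81, 6.34 and 8.84 in Wfs1HZ and 13.5, 10.4, 12.7 and 2.39 in Wfs1KO islets, and Wfs1KO replicates 1 and 3 lay above all WT animals while replicate 4 had the lowest value. Pfkl, Aldoa, Tpi1, Gapdh and Eno1 each had Wfs1HZ replicate 2 and Wfs1KO replicate 4 as their lowest animals. Without Wfs1KO replicate 4 the differences of these 5 from WT were 0.20, 0.07, 0.17, 0.15 and 0.47, above 0 where they lay below it with all animals, and the lowest unadjusted p among them was 0.0949 (Eno1, limma). Without Wfs1HZ replicate 2 the difference of Gapdh in Wfs1HZ was -0.22. Pgk1 (phosphoglycerate kinase) was at 14.9 to 22.8 RPKM in WT and 9.41 to 31.8 in Wfs1KO islets, and without Wfs1KO replicate 4 the groups did not overlap (0.64 on the log2 scale, adjusted p = 0.426, limma). Eno2, the neuronal enolase and the main form in islets, made up 69.4% ± 7.68 of the enolases in WT and 73.9% ± 7.09 in Wfs1KO islets. Eno3 differed by -0.30 ± 0.38 and Pgam1 (phosphoglycerate mutase) by 0.14 ± 0.42.

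Of the 4 genes of pyruvate entry, 3 were lower in Wfs1KO islets. Pdha1, the catalytic subunit of pyruvate dehydrogenase, was at 40.3, 37.0, 36.8 and 27.1 RPKM in WT, 34.0, 35.8, 32.6 and 19.4 in Wfs1HZ and 23.1, 25.7, 24.0 and 27.8 in Wfs1KO islets. Wfs1KO replicates 1 to 3 lay below all WT animals, and replicate 4, at 27.8, was just above WT replicate 4, at 27.1. The difference was -0.48 ± 0.17 (adjusted p = 0.835, limma; exact permutation p = 0.0571). The subunits that work beside it differed by 0.02 ± 0.26 (Pdhb) and -0.09 ± 0.30 (Dlat). Pcx, which feeds oxaloacetate into the cycle, was at 2.02, 1.07, 0.32 and 1.42 RPKM in WT, 1.14, 0.32, 0.98 and 1.30 in Wfs1HZ and 1.22, 0.99, 0.64 and 0.42 in Wfs1KO islets. The WT animals alone spanned 0.32 to 2.02 RPKM, its lowest value corresponded to about 3.3 reads in the shallowest library, and the difference (-0.38 ± 0.58) lay within the spread between animals.

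In the citrate cycle, 2 of 8 members were higher and 6 lower in Wfs1KO islets. Fh1 (fumarate hydratase, chr1:175600374-175625635, minus strand) was at 32.6, 25.2, 23.7 and 31.0 RPKM in WT, 30.4, 22.0, 21.7 and 19.0 in Wfs1HZ and 20.7, 21.4, 10.4 and 16.1 in Wfs1KO islets. The highest Wfs1KO animal, at 21.4, was below the lowest WT animal, at 23.7, and the Wfs1HZ animals lay across both. The difference from WT was -0.75 ± 0.25 on the log2 scale (adjusted p = 0.835, limma; exact permutation p = 0.0286), and it lay between -0.87 and -0.53 over the alternatives tried, with the lowest adjusted p = 0.466 (limma). Mdh2 was at 194, 115, 96.4 and 121 RPKM in WT, 132, 87.5, 119 and 104 in Wfs1HZ and 158, 129.7, 130.1 and 159.8 in Wfs1KO islets, with overlap between Wfs1KO and WT (0.18 ± 0.23). Cs (citrate synthase) was at 56.1 to 61.0 RPKM in WT and 42.4 to 56.6 in Wfs1KO islets (-0.17 ± 0.15). The isocitrate dehydrogenases Idh2, Idh3a and Idh3b differed by -0.10 ± 0.26, -0.19 ± 0.22 and 0.04 ± 0.22, Ogdh (oxoglutarate dehydrogenase) by -0.16 ± 0.19 and Suclg1 (succinate-CoA ligase) by -0.003 ± 0.40.

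Among the cytosolic arms and shuttles, 3 were higher and 4 lower in Wfs1KO islets. Gpd2, the mitochondrial glycerol phosphate dehydrogenase, which is abundant in beta cells, was at 17.5, 19.0, 18.4 and 12.9 RPKM in WT, 17.3, 15.4, 14.6 and 5.71 in Wfs1HZ and 13.0, 12.5, 8.35 and 11.1 in Wfs1KO islets. Wfs1KO replicates 2 to 4 lay below all WT animals, and replicate 1, at 13.0, was level with WT replicate 4, at 12.9 (-0.59 ± 0.20, adjusted p = 0.835, limma; exact permutation p = 0.0571). Glud1 was at 129, 191, 165 and 129.7 RPKM in WT, 138, 169.7, 109 and 78.0 in Wfs1HZ and 85.5, 113, 86.6 and 155 in Wfs1KO islets. Wfs1KO replicates 1 to 3 lay below all WT animals and replicate 4 within them (-0.51 ± 0.24, adjusted p = 0.879, limma; exact permutation p = 0.114). Me3 was at 1.04, 0.91, 0.7 and 0.82 RPKM in WT, 0.51, 2.80, 0.49 and 1.27 in Wfs1HZ and 1.78, 2.26, 0.71 and 0.62 in Wfs1KO islets, and its highest animal was Wfs1HZ replicate 2. Me3 differed by 0.40 ± 0.48, Me1 (cytosolic malic enzyme) by 0.06 ± 0.25, Mdh1 by 0.11 ± 0.25, Slc25a1 (the citrate carrier) by -0.05 ± 0.29 and Idh1 by -0.01 ± 0.20.

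The beta cell markers were lower as well, as Fh1, Pdha1, Gpd2 and Glud1 were, on the log2 scale. Of 9 tested, 7 were lower in Wfs1KO than in WT islets, with a median log2 fold change of -0.75, and 2 (Slc30a8 and Slc2a2) had an unadjusted p under 0.05. Their summed level was 32086 to 179874 RPKM in WT and 22394 to 91427 in Wfs1KO islets. Without Wfs1KO replicate 4 the differences of Fh1, Pdha1, Gpd2 and Glud1 were -0.74, -0.52, -0.60 and -0.69. The part of the beta cell RNA in the members' values was not tested.

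Wfs1HZ against WT asked whether loss of 1 copy changed the same genes. No member passed an adjusted p under 0.05 (all transcripts 0%). Gpi1 alone had an unadjusted p under 0.05 (2.70% of members, against 2.35% of all transcripts), and it alone had groups that did not overlap (all transcripts 1.66%). Gpi1 was at 36.2, 25.4, 26.3 and 38.1 RPKM in WT, 23.9, 17.5, 22.9 and 24.9 in Wfs1HZ and 30.7, 22.5, 24.2 and 25.1 in Wfs1KO islets, so that the highest Wfs1HZ animal, at 24.9, was below the lowest WT animal, at 25.4 (-0.49 ± 0.21, adjusted p = 1, limma; exact permutation p = 0.0286). The unadjusted p of Gpi1 did not stay under 0.05 without Wfs1HZ replicate 2, its lowest animal, where the difference was -0.37 with an adjusted p = 0.893 (limma). The same held without WT replicate 1 or 4 and without Wfs1HZ replicate 1 or 3. Next by p were Pfkm (-0.73 ± 0.35), Pfkl (-0.55 ± 0.29), Idh1 (-0.50 ± 0.31), Eno1 (-0.55 ± 0.38) and Fh1 (-0.28 ± 0.21), all lower in Wfs1HZ, all with overlap and all with an adjusted p = 1 (limma). Idh1, the cytosolic isocitrate dehydrogenase, was at 21.2, 16.6, 19.6 and 14.3 RPKM in WT, 20.9, 14.1, 11.0 and 7.39 in Wfs1HZ and 23.1, 17.6, 14.8 and 15.7 in Wfs1KO islets, with 3 of 4 Wfs1HZ animals below WT. In all, 13 members were higher and 24 lower, with a median of -0.21 beside 0.04 over all transcripts. The number higher was 6, 7 and 8 without Wfs1HZ replicate 1, Wfs1HZ replicate 2 and WT replicate 4, respectively, and up to 16 (without Wfs1HZ replicate 4), and the median lay between -0.30 and -0.04 with 1 animal left out. Without Wfs1HZ replicate 2 the differences of Pfkm, Pfkl, Idh1, Eno1 and Fh1 were -0.66, -0.34, -0.56, -0.19 and -0.26. The disallowed genes differed from WT by 0.16 ± 0.35 for Hk1, 0.12 ± 0.34 for Ldha and 0.12 ± 0.56 for Slc16a1, all with overlap and an adjusted p = 1 (limma). The sign of the last 2 depended on the animals included. Ldha lay between -0.15 (without Wfs1HZ replicate 1) and 0.35, and Slc16a1 between -0.28 (without Wfs1HZ replicate 2) and 0.67, when 1 animal was left out.

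Wfs1KO against Wfs1HZ separated the loss of both copies from the loss of 1. In limma no member had an adjusted p under 0.05 (all transcripts 0%), none had an unadjusted p under 0.05 (all transcripts 2.45%) and none had groups that did not overlap (all transcripts 1.43%). The 6 members with the lowest p were Mdh2 (0.39 ± 0.23), Fh1 (-0.47 ± 0.28), Idh1 (0.49 ± 0.32), Hk2 (1.00 ± 0.66), Ldha (0.64 ± 0.50) and Pfkl (0.43 ± 0.36), all with an adjusted p = 1 (limma). For Mdh2 and Idh1 all 4 Wfs1KO animals lay above the Wfs1HZ median, and for Fh1 all 4 lay below it. Hk1 differed by 0.38 ± 0.34 and Slc16a1 by 0.50 ± 0.54, the latter at -0.05 without Wfs1HZ replicate 4. With 1 animal left out, Hk2 lay between 0.47 and 1.48, Ldha between 0.37 and 1.14 and Pfkl between 0.22 and 0.76. In all, 23 members were higher and 14 lower, with a median of 0.21 beside 0.04. Without Wfs1HZ replicate 2 and Wfs1KO replicate 4, a choice made after seeing the data, Eno1, Pfkl, Hk2 and Ldha had an unadjusted p under 0.05, all higher in Wfs1KO (10.8% of members, all transcripts 5.90%), and the lowest adjusted p was 0.738 (limma).

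Across the 12 animals, Slc16a1 and Hk1 ran with stromal markers and Ldha with ductal markers. The log2 RPKM of these 3 genes was set against the log2 summed RPKM of acinar, ductal, stromal, endothelial and immune markers, 15 relations in all. Such sums give most weight to the most abundant markers. In WT the ductal sum was mostly Spp1, at a mean of 838 RPKM with Epcam next at 167, and Ctrb1 led the acinar sum at 68107 RPKM. Relations without these genes were not tested. Slc16a1 followed the stromal markers, with r = 0.86 and rho = 0.86 (permutation p = 6.3e-04 and 5.7e-04, adjusted p = 0.00285 and 0.00427), and r = 0.75 without the 2 animals farthest from the median. Hk1 followed the same markers, with r = 0.84 and rho = 0.87 (permutation p = 3.6e-04 and 5.2e-04, adjusted p = 0.00285 and 0.00427), and r = 0.91 without these 2 animals. Ldha followed the ductal markers, with r = 0.78 and rho = 0.80 (permutation p = 0.00301 and 0.00295, adjusted p = 0.00903 and 0.0147), and r = 0.70 without the 2 farthest. With genotype means subtracted, r was 0.85, 0.82 and 0.83, values that pool the 3 genotypes. For Slc16a1, leaving out the 2 farthest animals brought this r to 0.37. Within Wfs1KO alone Slc16a1 did not rise with the stromal markers. It was at 7.48, 6.23, 6.31 and 5.78 RPKM where these summed to 70.1, 87.1, 72.2 and 175 RPKM. For Hk1, median-of-ratios scaling brought r with the stromal markers to 0.55.

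Endothelial markers parted the animals into 2 sets, with WT replicates 1 and 4 and Wfs1HZ replicate 4 at 32.5 to 39.5 RPKM and the other 9 at 84.5 to 156. Hk1 was at 2.86 to 3.38 RPKM in the first 3 and 4.38 to 8.11 in the other 9, and Slc16a1 at 1.38 to 3.71 and 3.87 to 10.7 RPKM. Over all 12 animals both relations with endothelial markers had an adjusted permutation p = 0.00285, and no r is given across the separate sets. Within the 9, r was 0.36 for Hk1 (exact permutation p = 0.343) and 0.49 for Slc16a1 (exact permutation p = 0.181), with rho = 0.42 (exact p = 0.27) and 0.52 (exact p = 0.162). The ductal markers were at 871 to 1608 RPKM in WT, 703 to 1667 in Wfs1HZ and 409 to 2138 in Wfs1KO islets, lowest in Wfs1KO replicate 4, where Ldha was lowest as well. No relation with the acinar markers passed an adjusted p under 0.05 (r = -0.55 for Hk1, 0.44 for Ldha and -0.52 for Slc16a1, adjusted permutation p = 0.138, 0.233 and 0.147). Nor did any with the immune markers (r = -0.60, 0.51 and -0.26, adjusted permutation p = 0.0959, 0.147 and 0.514). With genotype means subtracted, Hk1 gave r = -0.73 with the immune markers (adjusted permutation p = 0.0158), and -0.71 without the 2 farthest animals. These sums are measured in the same libraries as the genes, and their part in the difference between genotypes was not tested.

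**Figure D5:**
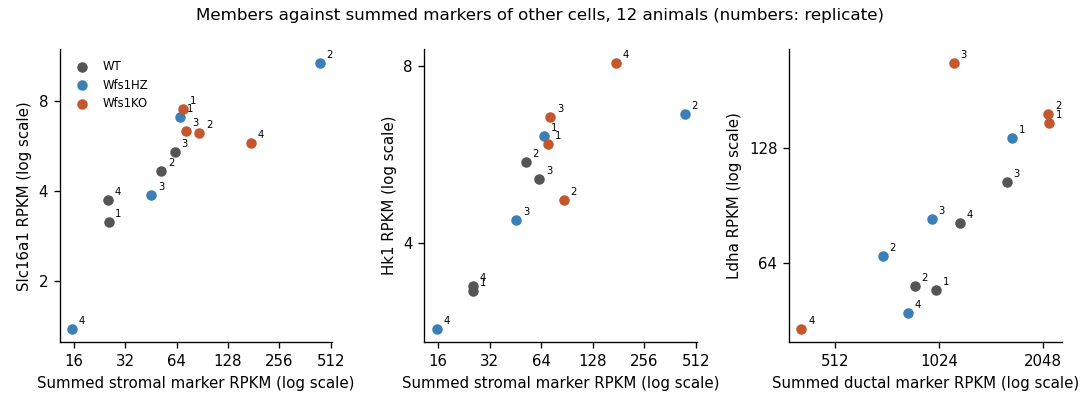
Points show the RPKM of Slc16a1 and Hk1 against the summed RPKM of 8 stromal markers and of Ldha against 9 ductal markers, on log axes, for the 12 animals coloured by genotype and numbered by replicate. Over the 12 animals all 3 genes lie higher where the markers are higher (r = 0.86, 0.84 and 0.78), though Slc16a1 does not within Wfs1KO. In WT the ductal sum is mostly Spp1.

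The genes around these enzymes, taken from lists by name, are given by their counts in Wfs1KO against WT islets, beside the 5.64% of all transcripts with an unadjusted p under 0.05. All the other lists were also chosen with earlier results of these data known. Of 23 other glycolysis genes, 11 were higher and 12 lower, and by means of RPKM 13 were higher and 9 lower. An unadjusted p under 0.05 was reached by 3 (13.0%), among them Slc2a2 (the beta cell glucose transporter, 3.37 to 11.7 RPKM in WT and 2.50 to 4.34 in Wfs1KO) and Slc16a7 (a lactate carrier, means of 3.49 and 1.84 RPKM), both lower. Of 22 other pyruvate and citrate cycle genes, 6 were higher and 16 lower, and 1 had such a p, Acly (ATP citrate lyase, 70.6 and 43.5 RPKM). Of 13 shuttle and carrier genes, 4 were higher and 9 lower, and Slc25a13 (an aspartate and glutamate carrier, 2.02 and 1.04 RPKM) and Gpt2 (8.86 and 6.07 RPKM) had such a p. Of 10 pentose phosphate genes tested, 7 were higher, and H6pd (17.1 and 35.1 RPKM) had such a p.

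Of 15 other genes called disallowed in beta cells, 13 were higher in Wfs1KO than in WT islets on the log2 scale (11 by means of RPKM), with a median log2 fold change of 0.51. Over all transcripts 57.4% were higher, with a median of 0.07. In the same comparison 7 of 8 stromal markers (median 1.28) and 8 of 8 endothelial markers (median 0.62) were higher, and their part in the values of the disallowed genes was not tested. Lmo4 (a LIM domain factor) was at 2.38 to 4.44 RPKM in WT, 5.41 to 13.5 in Wfs1HZ and 6.77 to 11.6 in Wfs1KO islets, and Smad3 and Zfp36l1 also had an unadjusted p under 0.05, 3 of 15 (20.0%) with Lmo4. None of the 15 had an adjusted p under 0.05, the lowest being 0.362 (limma).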

How the data were processed

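RNA of islets from 12 mice was sequenced on a SOLiD 5500xl instrument from cDNA made with the Ovation RNA-Seq System V2 from 10 ng of total RNA, in paired reads of 75 bp and 35 bp. The authors aligned these to mm10 with LifeScope and deposited RPKM per transcript and animal, unlogged and rounded to 2 decimals. The gene annotation and the counting tool are not given in the sources used here. The study's own count test needs counts and was left out.

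Genotypes and replicate numbers came from the sample labels, and each library is 1 animal. The RPKM were used as deposited, as log2(RPKM + 0.1), so fold changes of low transcripts are understated. Depth was recovered from RNA genes under 200 nt, in which 1 read has a fixed RPKM value. It was 2190000 to 9560000 reads, and approximate reads per gene cover counting error only. Each pair of genotypes was fitted with limma 3.58.1 (R 4.3.3) with a variance trend, and p-values were adjusted (Benjamini-Hochberg) over the 21701 transcripts whose mean reached 0.1 RPKM. SEs are those of limma. Single genes and isozyme shares were also compared by exact two-sided permutation tests, whose smallest p with 4 against 4 is 0.0286, and correlations by two-sided tests with 100000 permutations. The fit was tested on simulated data. Other steps ran in Python 3.11.15 with scipy 1.17.1, pandas 2.3.3 and numpy 2.4.6, and matplotlib 3.10.9 drew the figures.

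The members, the other lists and the rule for named genes were chosen with earlier results of these data known. The rule names Hk1, Ldha and Slc16a1, the 5 highest and 3 lowest members in WT, the 6 members with the lowest p in each pair and every member whose groups did not overlap, and from other lists up to 3 genes with the lowest p. Values of Pkm2 and the extra detail on Pgk1 and Cs were added after their values were seen. Alternatives were other pseudocounts, filters, scalings, variance models, sample weights, a single fit, a replicate block and the removal of each animal in turn. Leaving out Wfs1HZ replicate 2 and Wfs1KO replicate 4 together was added after seeing the data. Aldoa has a second annotated gene of the same name in GENCODE M21, and reads of these copies could not be divided. Some results on genes of the other lists are not reported here.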

Additional observations from a re-analysis of the deposited data

Results flagged for a closer look

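Of 111 groups of 4 animals, 1 was flagged, for a gap in Cs (citrate synthase) among the Wfs1KO islets. Its lowest value, 42.36 RPKM in replicate 3, lay apart from 54.72 to 56.6 RPKM in the other 3, a gap of 0.868 of the whole range, past Dixon's limit for 4 samples. Chance gives about 1 such gap in 20 groups, a higher rate than the 1 in 111 found here. Replicate 3 was also the lowest of all 12 animals for Ogdh, Suclg1 and Fh1.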

How the results depend on the processing

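No member had an adjusted p under 0.05 under any alternative, and no difference past a threshold changed its direction. In Wfs1KO against WT, 1 member (Fh1, 2.70%) had an unadjusted p under 0.05 when all 12 samples entered a single fit. The share over all transcripts was 3.03%. With 1 animal left out it was 3 (without WT replicate 1) to 10 (without Wfs1KO replicate 4), and the number with groups that did not overlap was 2 to 9. In Wfs1KO against Wfs1HZ, 1 member (Idh2, 2.70%) had such a p with median-of-ratios scaling, against 3.66% of all transcripts. With quantile normalization there were 3 (8.11%, all transcripts 4.31%) and with sample weights 2 (5.41%, all transcripts 10.3%). Without Wfs1HZ 2 and Wfs1KO 4 there were 4 (10.8%, all transcripts 5.90%). With 1 animal left out there were 0 to 4, the highest without Wfs1KO replicate 4 (all transcripts 3.60%). In Wfs1HZ against WT the number was 0 with a mean of at least 1 RPKM, quantile normalization, robust eBayes and a variance without trend. All transcripts gave 2.16%, 4.66%, 2.04% and 2.36% there. With 1 animal left out it was 0 to 2. It was 0 without WT replicate 1 or 4 (all transcripts 1.41% and 1.79%). It was 2 (5.41%) without WT replicate 2 or Wfs1HZ replicate 4 (all transcripts 2.33% and 5.01%). Of the relations with marker lists, 5 passed an adjusted p under 0.05 and 3 with median-of-ratios scaling. Of the isozyme shares, 3 to 9 had groups that did not overlap with 1 animal left out, 9 without Wfs1KO replicate 4. The cause of these changes was not tested, except that leaving out an animal lowers the number compared. Animals with the same replicate number are different animals, and their deviations correlated at -0.17 to 0.23. In Wfs1HZ against WT, the best match of replicates 1, 2 and 4 was the animal of the same number (0.07, 0.23 and 0.21). The main fits did not pair animals by number, and whether the numbers stand for a shared step was not tested. With a replicate block, 4, 0 and 3 members (10.8%, 0% and 8.11%) had an unadjusted p under 0.05 in the 3 comparisons, in the order given here. All transcripts gave 5.03%, 1.82% and 3.94%. At the lowest depth, values of Pcx rest on about 3.3 reads.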

Other observations

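Transcripts of the response to low oxygen and to glucose, which regulate several of these enzymes, were read beside them. Of 24 hypoxia response genes, 20 had a log2 fold change above 0 in Wfs1KO against WT islets, where 57.4% of all transcripts did. Their median log2 fold change was 0.14 beside 0.07 over all transcripts. An unadjusted p under 0.05 was reached by 3 (12.5%), against 5.64% of all transcripts. Adm (adrenomedullin) was at 0.45 to 1.37 RPKM in WT, 1.00 to 2.95 in Wfs1HZ and 1.75 to 7.59 in Wfs1KO islets. Of the 24 it alone had no overlap between Wfs1KO and WT, against 2.74% of all transcripts. Ddit4 and Bhlhe40 had means of 18.8 and 104 RPKM in WT and 31.0 and 143 in Wfs1KO islets. None of these had an adjusted p under 0.05 in limma. Of 11 glucose response genes, 6 were higher and 5 lower, with a median of 0.00, and Acly and Slc2a2, both lower, had an unadjusted p under 0.05. By means of RPKM, 4 of these 11 were higher and 7 lower. With 1 animal left out, 3 to 5 were higher on the log2 scale, with a median of -0.27 to -0.02.

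Of the marker lists of other cells in Wfs1KO against WT islets, 2 of 7 alpha, delta and PP cell markers, 2 of 13 acinar, 5 of 9 ductal, 8 of 8 endothelial, 7 of 9 immune and 0 of 3 red cell markers had a log2 fold change above 0. By means of RPKM, 12 of 13 acinar and 6 of 9 ductal markers were higher in Wfs1KO, and the other lists gave the same counts. Without Wfs1KO replicate 4, 12 of 13 acinar, 8 of 9 ductal and 1 of 7 alpha, delta and PP cell markers had a log2 fold change above 0. For the alpha, delta and PP cell markers it was 5 of 7 without WT replicate 2, and for the acinar markers 0 of 13 without Wfs1KO replicate 1.

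Among the 37 members, 18 had their lowest value in Wfs1HZ replicate 4, the animal with the highest summed acinar markers (308435 RPKM), and 12 had their highest value in WT replicate 1. The same shares over all transcripts were not counted. Without Wfs1HZ replicate 4, 70.4% of all transcripts were higher in Wfs1HZ than in WT, against 53.2% with all animals. Wfs1KO replicate 3, with acinar markers at 281068 RPKM, was the lowest animal for 3 members.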
